A study of Ovis aries with 16 samples.

Results

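Genes of the Notch pathway and of arterial and venous identity were examined in the lungs of lambs with an aortopulmonary shunt and of control lambs. The genes were chosen by name: NOTCH1, NOTCH3, NOTCH4, DLL4, JAG1, HEY1 and EFNB2 for the arterial side, and EPHB4 and NR2F2 for the venous side. Every probe set that the platform annotation assigned to 1 of these symbols alone was taken, whatever its values. Of the 9 genes, 5 had such a probe set and 9 probe sets were found in all, out of 24016 probe sets tested and 9155 genes with a single-symbol probe set. The arterial side was represented by 6 probe sets of 4 genes (DLL4, JAG1, NOTCH4 and HEY1) and the venous side by 3 probe sets of NR2F2. No single-symbol probe set was found for NOTCH1, NOTCH3, EFNB2 and EPHB4, so the ephrin-B2 and EphB4 pair was not analysed here and the set described is a Notch set with 1 venous regulator.

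Lung RNA was compared between 8 shunt lambs and 8 control lambs. In the shunt group a Gore-tex vascular graft of 8.0 mm and 2 mm length was sewn in the fetus between the aorta, at its ascending portion, and the pulmonary trunk, 9 ± 6 days before term, which models congenital heart disease by raising the flow of blood through the lungs. The control group had a sham operation. Both groups were born spontaneously, and peripheral lung was taken at 3 days of age, so the comparison is a single early time point in whole tissue. The arrays carry bovine probes, so sheep cRNA was measured on probes of a related species, and each level is a log2 value made by the authors with RMA, a method that corrects background, is designed to bring the arrays to a common distribution and combines the probes of each probe set into 1 value. The labels identify no animal, and the 16 arrays were treated as 16 lambs. Were any animal measured more than once, the p-values would reflect only the spread between arrays.

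Notch signalling passes between touching cells. A ligand of the Delta or Jagged family on one cell binds a Notch receptor on its neighbour, proteases release the intracellular part of the receptor, and that part enters the nucleus and switches on repressors of the HES and HEY families. In blood vessels this pathway promotes arterial identity in endothelium, and Jagged ligands on endothelium also instruct the smooth muscle around it. NR2F2, also called COUP-TFII, is a nuclear receptor that favours venous identity and restrains Notch signalling in venous endothelium, but it is also made by lung mesenchyme, so its level in whole lung is not a measure of veins alone.

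The arrays resembled each other closely, with correlations between pairs of arrays of 0.980 to 0.995 over all probe sets. The array least like the rest was control replicate 2, whose mean correlation with the others was 0.983, and values without it are given where a result moves with it. The median level of an array was 7.116 to 7.145 in shunt lambs and 7.143 to 7.191 in control lambs, so the deposited arrays were not at one common median, and no source states whether they were normalized in 1 run. Probe sets of defining genes of lung epithelium were among the brightest. That of SFTPC, the surfactant protein C gene, lay at the 99.7th percentile of levels over all probe sets. The brightest of AGER, a marker of alveolar type 1 cells, lay at the 96.6th. Over the whole table, 17 probe sets passed an adjusted p of 0.05 in the limma fit, which is 0.0708% of those tested.

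None of the 9 probe sets passed that threshold. At an unadjusted p under 0.05, limma placed 2 of the 9 higher in shunt lungs, against 6.42% of all probe sets, and 0 lower, against 7.32% of all probe sets. This background split depends on the scaling, with 1543 probe sets higher and 1759 lower as deposited, 2184 higher and 1045 lower after centring of array medians, and 1795 higher and 1355 lower after cyclic loess. The 2 probe sets were the brightest probe set of NOTCH4 and the second of NR2F2. An exact two-sided permutation test over all 12870 divisions of the 16 arrays gave 1 of the 9, that of NOTCH4, at an unadjusted p under 0.05 and 0 after adjustment. With 12870 divisions p has a floor, and a few probe sets at the floor cannot pass adjustment over 24016, so that 0 says little. The difference was above 0 for 8 of the 9 probe sets, against 44.9% of all probe sets, but probe sets of 1 gene are not independent of each other. Without control replicate 2, DLL4 (-0.0068) and the brightest JAG1 probe set (-0.0260) were below 0 as well. The share above 0, here and below, also depends on the scaling. The median difference of all probe sets was -0.014 as deposited and 0.0095 after centring of array medians.

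**Figure D1:**
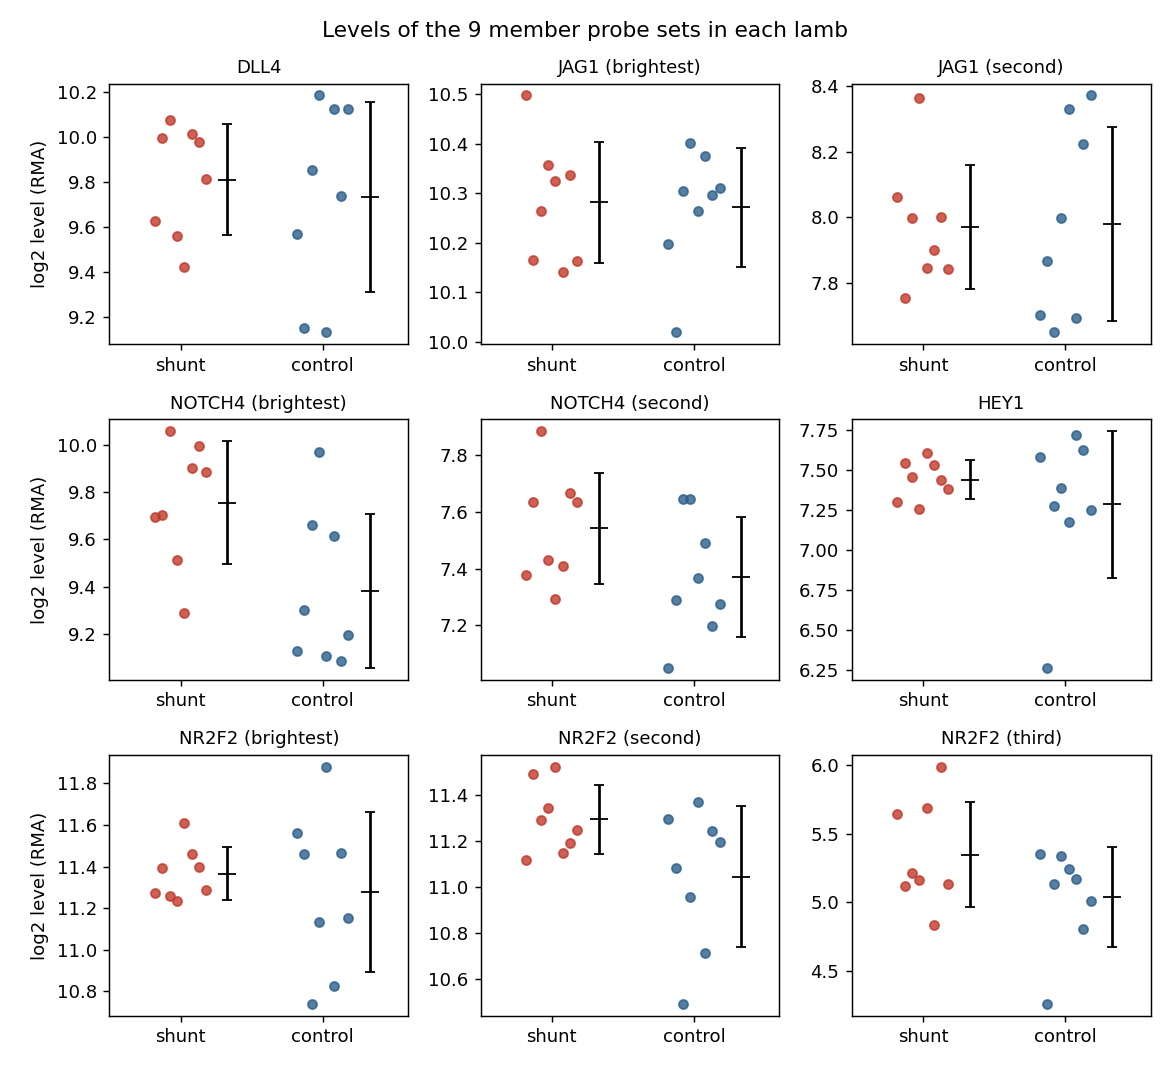
Log2 level of each of the 9 probe sets in each lamb (points), in shunt lambs on the left and control lambs on the right of each panel, with the mean and SD of 8 lambs beside them. The vertical axes differ between panels. The groups overlap in every panel, and the NOTCH4 panel on the left of the middle row shows 5 control lambs at or below 9.30 against 1 shunt lamb.

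Among the ligands, DLL4 is the Delta-like ligand made by arterial and sprouting capillary endothelium. Its probe set (bovine gene 518746) ranged over log2 levels of 9.42, 9.90 and 10.07 (lowest, median and highest) in shunt lambs and 9.13, 9.79 and 10.18 in control lambs. All 8 shunt lambs lay inside the range of the control lambs. The mean was 9.81 ± 0.25 in shunt lambs and 9.73 ± 0.42 in control lambs (SD, n = 8 each), a difference of 0.08 ± 0.15 (SE) with a 95% interval of -0.25 to 0.40 and a limma adjusted p of 0.846. The sign of that difference depends on single control lambs and on their weights: it was -0.0068 without control replicate 2, -0.0094 without control replicate 5 and -0.0287 with array weights.

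JAG1 encodes Jagged1, the ligand through which endothelium signals to smooth muscle. Its brightest probe set (bovine gene 783681) had log2 levels of 10.14, 10.29 and 10.50 in shunt lambs and 10.02, 10.30 and 10.40 in control lambs (lowest, median and highest). The groups were interleaved, with 7 of 8 shunt lambs inside the control range. The mean was 10.28 ± 0.12 in shunt lambs and 10.27 ± 0.12 in control lambs, and the 95% interval of the difference, -0.12 to 0.14, was the narrowest of the 9. JAG1's dimmer probe set had log2 levels of 7.75, 7.95 and 8.36 in shunt lambs and 7.65, 7.93 and 8.37 in control lambs, with all 8 shunt lambs inside the control range. Its mean was 7.97 ± 0.19 in shunt lambs and 7.98 ± 0.30 in control lambs, with a 95% interval of the difference of -0.25 to 0.23. Differences of JAG1 had adjusted p-values of 0.957 and 0.979 in limma, and the sign of both turned under other scalings of the arrays, so neither has a direction.

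NOTCH4, the receptor of the family that is largely restricted to endothelium, showed the largest difference of the 9 probe sets. Its brightest probe set (bovine gene 536128) had log2 levels of 9.69, 9.70, 10.06, 9.51, 9.29, 9.90, 9.99 and 9.89 in shunt lambs 1 to 8. In control lambs 1 to 8 the same probe set had 9.13, 9.30, 9.66, 9.97, 9.11, 9.61, 9.09 and 9.20. Most shunt lambs were high and most control lambs low, but control lambs 3, 4 and 6 lay among the shunt lambs and shunt lamb 5 lay among the low control lambs, so that 6 of 8 shunt lambs fell inside the control range. The mean was 9.75 ± 0.26 in shunt lambs and 9.38 ± 0.33 in control lambs (SD, n = 8 each). The difference of 0.37 ± 0.13 (SE) corresponds to 1.29-fold, with a 95% interval of 1.07-fold to 1.57-fold. In 7 of 8 shunt lambs NOTCH4 exceeded the control mean, with an unadjusted p of 0.0114 and an adjusted p of 0.259 in limma, and an exact permutation p of 0.0275, so the difference did not pass the threshold over the whole table.

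The dimmer NOTCH4 probe set gave a smaller difference, at log2 levels of 7.29, 7.53 and 7.88 in shunt lambs and 7.05, 7.33 and 7.65 in control lambs (lowest, median and highest). The groups overlapped, and 6 of 8 shunt lambs lay inside the control range. The mean was 7.54 ± 0.20 in shunt lambs and 7.37 ± 0.21 in control lambs, a difference of 0.17 ± 0.10 (SE), with a 95% interval of -0.03 to 0.37 and a limma adjusted p of 0.424. As with the brightest probe set, 7 of 8 shunt lambs were above the control mean. Levels of different probe sets cannot be set against each other, since each has its own affinity.

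HEY1 is a repressor that Notch receptors switch on directly, and it carries the arterial programme in endothelium. Its probe set (bovine gene 408005) had log2 levels of 7.25, 7.45 and 7.61 in shunt lambs and 6.26, 7.33 and 7.72 in control lambs (lowest, median and highest). All 8 shunt lambs lay inside the control range, and the lowest level was that of control replicate 2, with the next control lamb at 7.18. The mean was 7.44 ± 0.12 in shunt lambs and 7.28 ± 0.46 in control lambs, a difference of 0.15 ± 0.15 (SE) with a 95% interval of -0.16 to 0.47 and an adjusted p of 0.657 in limma. Without control replicate 2 the difference of HEY1 was 0.0085.

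On the venous side, the brightest NR2F2 probe set (bovine gene 281945) lay at the 96.3rd percentile of levels over all probe sets. That probe set had log2 levels of 11.24, 11.34 and 11.61 in shunt lambs and 10.74, 11.31 and 11.88 in control lambs (lowest, median and highest). All 8 shunt lambs lay inside a much wider control range. The mean was 11.37 ± 0.13 in shunt lambs and 11.28 ± 0.39 in control lambs, a difference of 0.09 ± 0.13 (SE) with a 95% interval of -0.18 to 0.36 and a limma adjusted p of 0.780.

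The second NR2F2 probe set was nearly as bright and showed a larger difference. Its log2 levels were 11.12, 11.27 and 11.52 in shunt lambs and 10.49, 11.14 and 11.37 in control lambs. All 8 shunt lambs were above the control mean, although 6 of them lay inside the control range. The mean was 11.30 ± 0.15 in shunt lambs and 11.04 ± 0.31 in control lambs, a difference of 0.25 ± 0.11 (SE), or 1.19-fold, with a 95% interval of 0.02 to 0.48. Its unadjusted p was 0.0355 and its adjusted p 0.338 in limma, and the exact permutation p was 0.0538.

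The third NR2F2 probe set was dim, at the 15.8th percentile of levels. It had log2 levels of 4.83, 5.19 and 5.98 in shunt lambs and 4.26, 5.15 and 5.35 in control lambs, with 5 of 8 shunt lambs inside the control range and the other shunt lambs above it. The mean was 5.35 ± 0.38 in shunt lambs and 5.04 ± 0.36 in control lambs, a difference of 0.31 ± 0.17 (SE) with a 95% interval of -0.04 to 0.66 and a limma adjusted p of 0.409. Without control replicate 2 that difference was 0.20, and with array weights 0.15. Detection calls were not used here, so a level this low cannot be set against background.

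**Figure D2:**
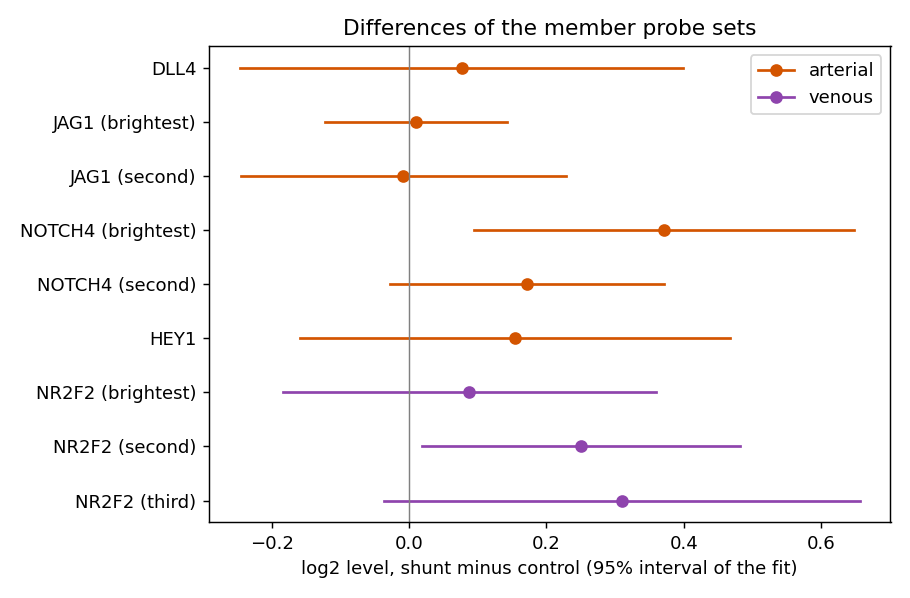
Difference of each probe set as log2 level in shunt minus control (points) with the 95% interval of the limma fit (lines), arterial genes in orange and NR2F2 in purple. The intervals of NOTCH4, brightest probe set, and NR2F2, second probe set, lie above 0 and the other intervals include 0.

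The arterial side against the venous side was described with medians and no test, because the genes were chosen with earlier results of these data known. Over all lambs, the median difference was 0.12 over the 6 arterial probe sets, of which 5 were higher in shunt lungs, and 0.25 over the 3 NR2F2 probe sets, all of which were higher. Of all probe sets, 44.9% were higher. The median over all 24016 probe sets was -0.01, with quartiles of -0.08 and 0.06. The order of the sides depends on how a gene is represented: with the brightest probe set of each gene, the medians were 0.12 for the arterial genes and 0.09 for NR2F2. The arterial median also rests on control replicate 2, without which it was 0.00086, against 0.20 for NR2F2.

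Lamb by lamb, the balance of the sides overlapped between the groups. The mean deviation from the control mean over the arterial probe sets was 0.13 ± 0.10 in shunt lambs and 0.00 ± 0.19 in control lambs (SD, n = 8 each). For the NR2F2 probe sets it was 0.22 ± 0.16 in shunt lambs and 0.00 ± 0.24 in control lambs. The arterial mean minus the venous mean of a lamb was -0.53 to 0.15 in shunt lambs and -0.49 to 0.39 in control lambs, ranges that overlap over most of their length.

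The levels of some of these genes varied more between control lambs than between shunt lambs. The SD of the brightest NR2F2 probe set was 3.03 times as large in control lambs, with a ratio of 2.04 for the second NR2F2 probe set and 0.95 for the third. HEY1 had a ratio of 3.71 and DLL4 a ratio of 1.72, while NOTCH4 had 1.26 and 1.08 and JAG1 had 0.98 and 1.57. Over all probe sets the median ratio was 1.23, and 67.6% varied more between control lambs.

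For HEY1 this difference in spread rests largely on 1 array. Without control replicate 2 the ratio of HEY1 was 1.72, and 13.5% of all probe sets had one as large, against 1.42% with all arrays. The ratio of the brightest NR2F2 probe set was 3.21 without that array, and 0.795% of all probe sets had one as large, against 3.25% with all arrays. For the brightest JAG1 probe set the ratio was 0.56 and for the third NR2F2 probe set 0.51 without that array. Over all probe sets the median ratio without that array was 1.07. These ratios were examined after the levels had been seen and carry no test.

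**Figure D3:**
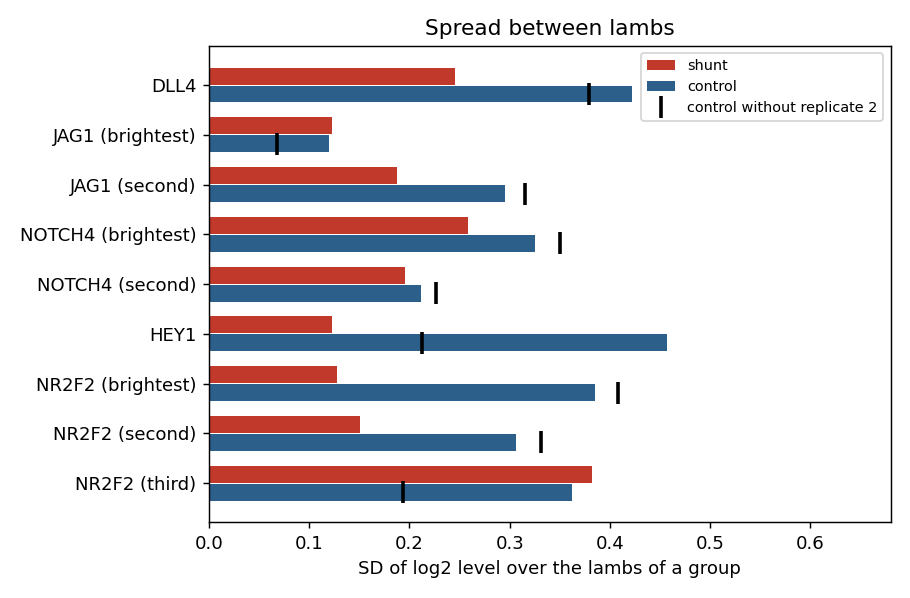
SD of the log2 level over the 8 lambs of a group, in shunt lambs (red) and control lambs (blue), with ticks for the control lambs without replicate 2. The tick of HEY1 falls well short of its blue bar, while those of the first and second NR2F2 probe sets lie just beyond their bars.

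Whether the probe sets moved together from lamb to lamb was examined with 36 correlations across the 16 lambs, a family added after the data had been seen. Of the probe sets that share a gene, those of NOTCH4 tracked each other most closely. The pair of NOTCH4 had a Pearson r of 0.86 and a Spearman rho of 0.88, with permutation p-values of 4e-05 and 3e-05 and adjusted values of 0.0014 and 0.0011, and r was 0.87 without the 2 lambs farthest from the median. Within groups it was 0.77 in shunt lambs and 0.88 in control lambs. The first and second NR2F2 probe sets had an r of 0.80 and a rho of 0.61, with permutation p-values of 0.00043 and 0.0144 and adjusted values of 0.0077 and 0.172. That relation was 0.72 without the 2 farthest lambs, 0.43 in shunt lambs and 0.91 in control lambs.

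The third NR2F2 probe set had an r of 0.04 with the first and 0.15 with the second, and the JAG1 pair had an r of 0.29. Permutation p-values of these 3 relations were 0.896, 0.553 and 0.271, with adjusted values of 0.921, 0.733 and 0.571. Whether these probe sets measure the same transcripts was not tested.

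No relation between different genes passed adjustment over the 36. The largest r between different genes was that of the brightest JAG1 probe set with the dim NR2F2 probe set, 0.66, with a rho of 0.57, permutation p-values of 0.00569 and 0.0227 and adjusted values of 0.0683 and 0.181. It was 0.36 without the 2 farthest lambs and -0.04 in control lambs without replicate 2, against 0.69 in shunt lambs and 0.73 in all control lambs. DLL4 and the brightest probe set of NOTCH4, its receptor, had an r of 0.62 and a rho of 0.56, with permutation p-values of 0.0107 and 0.0252 and adjusted values of 0.0768 and 0.181. This relation was 0.52 without the 2 farthest lambs, 0.88 in shunt lambs (exact permutation p of 0.0031) and 0.59 in control lambs (exact p of 0.122). DLL4 and the brightest JAG1 probe set had an r of 0.28 over all lambs. Within groups r was -0.58 in shunt lambs (exact permutation p of 0.131) and 0.80 in control lambs (exact p of 0.00888). The difference between the groups' correlations was not tested.

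DLL4 and NR2F2, brightest probe set, ran in opposite directions, with an r of -0.62 and a rho of -0.65, permutation p-values of 0.00958 and 0.00815 and adjusted values of 0.0768 and 0.147. This relation was -0.47 without the 2 farthest lambs. Within groups it was -0.19 in shunt lambs (exact permutation p of 0.654) and -0.76 in control lambs (exact p of 0.0321), where it was -0.80 without replicate 2. The other NR2F2 probe sets did not share it to that degree: DLL4 had an r of -0.33 with the second and 0.17 with the third, with permutation p-values of 0.218 and 0.525 and adjusted values of 0.561 and 0.733. For NOTCH4 and NR2F2, brightest probe sets, r was -0.41 and rho -0.42, with adjusted p-values of 0.386 and 0.349 from permutation, and r was -0.42 in shunt lambs and -0.71 in control lambs. HEY1 and the brightest NR2F2 probe set had an r of -0.11 over all lambs. Within groups it was 0.85 in shunt lambs (exact permutation p of 0.00682) and -0.24 in control lambs (exact p of 0.584). The difference between the groups was not tested here either, and NR2F2 varied less between shunt lambs.

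**Figure D4:**
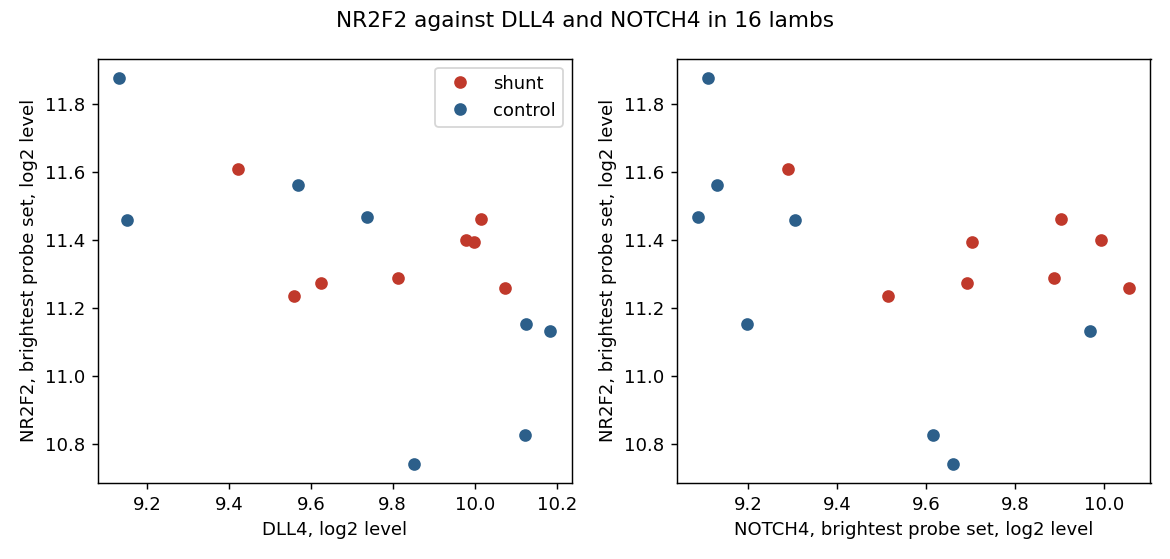
Log2 level of NR2F2 (vertical axis) against that of DLL4 (left) and NOTCH4 (right), brightest probe sets, with each point 1 lamb, shunt in red and control in blue. The control lambs spread from the upper left to the lower right, while the shunt lambs span a narrow range of NR2F2, 11.24 to 11.61.

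The genes whose pattern was most like that of each member were found by Spearman correlation of deviations from the group means over the 16 lambs, among 9155 genes, as a description. For DLL4 they were MGAT4A (0.84), ITGA5 (0.83) and TP53I11 (0.81). For JAG1 they were CHD2 (0.85), CUX1 (0.85) and RANBP10 (0.84). For NOTCH4 they were ANXA8L1 (0.86), RPLP0 (0.85) and TMEM37 (0.83). Without control replicate 2 the same genes ranked 1, 2 and 12 for DLL4, 31, 3 and 12 for JAG1, and 14, 9 and 23 for NOTCH4.

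For HEY1 the most alike were ACTR10 (0.85), CRELD2 (0.84) and DYNLL1 (0.83), and for NR2F2 they were FOLR3 (0.89), SPRY1 (0.85) and PARP9 (0.82). Without control replicate 2, FOLR3, SPRY1 and PARP9 ranked 1, 2 and 4 for NR2F2, whereas the genes named for HEY1 ranked 2, 20 and 36. On the same measure, NOTCH4 had 0.68 with DLL4 and -0.68 with NR2F2, and HEY1 had 0.01 with NOTCH4. These likenesses share the 16 arrays and are not evidence of shared function.

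The wider pathway was described from lists of other Notch, ephrin and Eph genes, each gene represented by its brightest probe set. Of 74 genes in these lists 35 were measured, and none passed the adjusted threshold in limma, which 0.0874% of all genes did. At an unadjusted p under 0.05, 3 were higher in shunt lungs, against 6.63% of all genes, and 5 were lower, against 7.92% of all genes. Of the 35, 21 had a difference above 0, compared with 44.9% of all genes, and their median difference was 0.03 against -0.01 over all genes. The sign of that small median turned when the arrays were normalized by quantiles again, to -0.0086 with 17 of 35 above 0, and the median was 0.01 without control replicate 2.

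Among other ligands, 2 of 6 genes were measured. DLK2, a ligand-like protein that lacks the domain of classical Notch ligands, was at 7.75 ± 0.10 in shunt lambs and 7.94 ± 0.09 in control lambs, a difference of -0.18 ± 0.05 (SE) with an adjusted p of 0.192 in limma. It was below the mean of the controls in all but 1 of the shunt lambs. DLK1, its relative, differed by 0.01. The remaining receptor, NOTCH2, was not among the genes measured.

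Of 16 genes that modify receptors and ligands or cut the receptor, 9 were measured. LFNG and MFNG, the Fringe enzymes that add sugar to Notch and favour Delta over Jagged ligands, were both higher in shunt lungs at an unadjusted p under 0.05. In limma, 6.63% of all genes were higher at that p and 7.92% were lower. LFNG was at 9.06 ± 0.18 in shunt lambs and 8.80 ± 0.19 in control lambs, a difference of 0.26 ± 0.09 (SE; adjusted p of 0.235), with 8 of 8 shunt lambs exceeding the control mean, but its other probe set differed by -0.08. MFNG was at 9.41 ± 0.15 in shunt lambs and 9.23 ± 0.18 in control lambs, a difference of 0.18 ± 0.08 (SE; adjusted p of 0.306), with 7 of 8 above the control mean. POFUT1, which attaches the fucose that Fringe enzymes extend, differed by -0.12 ± 0.06 (adjusted p of 0.334), with 0 of 8 shunt lambs above the control mean.

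In the nucleus, 5 of 11 genes were measured. RBPJ, the DNA-binding partner of the Notch intracellular domain, differed by 0.08 ± 0.09 (SE), and CREBBP, a coactivator, by 0.05 ± 0.06. MAML2, a coactivator of the same complex, differed by -0.14 ± 0.06 (limma adjusted p of 0.285) but was dim, at the 16.5th percentile of levels. Of 9 inhibitors and turnover genes 7 were measured and none had an unadjusted p under 0.05. DTX1, a ubiquitin ligase that acts on Notch, differed by 0.26 ± 0.15, but its other probe sets differed by -0.11 to -0.10. DTX2 differed by -0.07 ± 0.07, and FBXW7, which marks the intracellular domain for destruction, by 0.08 ± 0.10.

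Other targets pointed in both directions. Of 11 genes 3 were measured, and HES6 differed by -0.15 ± 0.08 (SE; limma adjusted p of 0.385). MYC, a growth regulator that Notch can switch on in some cells, was at 11.41 ± 0.39 in shunt lambs and 10.95 ± 0.34 in control lambs, a difference of 0.46 ± 0.16 (adjusted p of 0.245). CCND1, which encodes cyclin D1, was at 7.18 ± 0.25 in shunt lambs and 7.51 ± 0.23 in control lambs, a difference of -0.33 ± 0.11 (adjusted p of 0.222). Both MYC and CCND1 also respond to many other signals.

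Ephrins and Eph receptors other than the vascular pair gave small differences. Of 7 ephrin ligands 6 were measured, none at an unadjusted p under 0.05: EFNA5 differed by 0.23 ± 0.15 (its other probe sets by -0.02 to 0.12), EFNA4 by -0.17 ± 0.10 and EFNA2 by 0.09 ± 0.06 (SE). Of 13 Eph receptors 3 were measured. EPHA1, an epithelial Eph receptor, differed by -0.18 ± 0.07 (limma adjusted p of 0.265), while EPHA7 differed by 0.06 ± 0.05 and EPHA2 by 0.05 ± 0.09.

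Further arterial and venous endothelial genes were mostly higher in shunt lungs on both sides, without passing the threshold. Of 30 such genes 19 were measured, 15 had a difference above 0, against 44.9% of all genes. An unadjusted p under 0.05 was found for 6 that were higher, against 6.63% of all genes, and for 1 that was lower, against 7.92%. The lower gene was ALDH1A1, on the arterial side, with a difference of -0.15 ± 0.07 (SE; limma adjusted p of 0.308). None passed adjustment in limma. On the arterial side 7 of 18 were measured, with a median difference of 0.11. SOX18, a transcription factor of developing vessels, was at 8.92 ± 0.27 in shunt lambs and 8.34 ± 0.46 in control lambs, a difference of 0.58 ± 0.17 (SE; adjusted p of 0.192) with 8 of 8 shunt lambs above the control mean.

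CXCL12, a chemokine of arterial endothelium, differed by 0.38 ± 0.14 (adjusted p of 0.258), and EPAS1, the oxygen-regulated factor HIF-2alpha, by 0.21 ± 0.08 (adjusted p of 0.245). The other EPAS1 probe set differed by 0.08. The venous side had all 12 genes measured, with a median difference of 0.13. CPE was higher by 0.40 ± 0.17 (adjusted p of 0.304), ACKR1, a chemokine-binding receptor of venules, by 0.16 ± 0.07 (adjusted p of 0.327), and PLVAP, a protein of endothelial diaphragms, by 0.18 ± 0.07 (adjusted p of 0.265) at the 10.8th percentile of levels, with -0.0045 for its other probe set. How far the lists stood apart depends on 1 array: without control replicate 2 the medians were 0.06 for the arterial and 0.14 for the venous list, and with array weights 0.06 and 0.15. The difference between the lists was not tested.

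Endothelial markers had differences in the same direction, and their part in these differences was not tested. Of 12 endothelial markers measured of 15, 10 were higher in shunt lungs, against 44.9% of all genes, with a median difference of 0.20. Of these, 7 had an unadjusted p under 0.05 in limma, against 6.63% of all genes, a count that was 4 after quantile normalization again and 5 without control replicate 2. A lamb's mean deviation over these markers was 0.08 to 0.40 in shunt lambs and -0.15 to 0.19 in control lambs. FLI1 differed by 0.39 ± 0.07 (SE; limma adjusted p of 0.0519) and PECAM1, the adhesion molecule of all endothelium, by 0.28 ± 0.05 (adjusted p of 0.0559), so both were just short of the threshold. In whole lung, more cells of a type and more RNA per cell cannot be told apart.

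Smooth muscle and pericyte markers, from cells that respond to Jagged1, also had mostly positive differences. Of 9 smooth muscle markers measured of 11, 7 were higher (6 without control replicate 2), against 44.9% of all genes, with a median difference of 0.20. At an unadjusted p under 0.05 in limma, 5 were higher, against 6.63% of all genes. That count was 3 after cyclic loess and 6 with array medians centred. A lamb's mean deviation over these markers was 0.02 to 0.34 in shunt lambs and -0.19 to 0.28 in control lambs. MYH11, the smooth muscle myosin heavy chain, differed by 0.33 ± 0.10 and TPM2, a tropomyosin, by 0.37 ± 0.12 (SE; limma adjusted p of 0.207 for each), while the other TPM2 probe set differed by -0.05. Of 6 pericyte markers measured of 9, 5 were higher, against 44.9% of all genes, with a median difference of 0.18. At an unadjusted p under 0.05 in limma, 2 were higher, against 6.63% of all genes. The pericyte count was 1 without control replicate 2 and 4 with array medians centred. The mean deviation was 0.01 to 0.21 in shunt lambs and -0.10 to 0.09 in control lambs. MCAM differed by 0.20 ± 0.07 (adjusted p of 0.257) and CSPG4 by 0.17 ± 0.08 (adjusted p of 0.335). The other CSPG4 probe sets differed by -0.16 to -0.01. None of the smooth muscle or pericyte markers passed adjustment.

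Epithelial markers lay on the other side of 0. None of the 7 alveolar type 2 markers measured of 9 was higher in shunt lungs, against 44.9% of all genes. Their median difference was -0.19, and a lamb's mean deviation was -0.35 to 0.07 in shunt lambs and -0.14 to 0.19 in control lambs. None of the 5 alveolar type 1 markers or the 6 airway markers measured was higher, with median differences of -0.19 and -0.25. At an unadjusted p under 0.05 in limma, 3 type 2, 3 type 1 and 2 airway markers were lower, against 7.92% of all genes. No epithelial marker passed adjustment. The brightest NOTCH4 probe set, with a difference of 0.37, lay above the median of the endothelial markers, 0.20, and just below the highest, FLI1 at 0.39. The dimmer NOTCH4 probe set differed by 0.17. Whether NOTCH4 followed the endothelial markers was not tested.

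**Figure D5:**
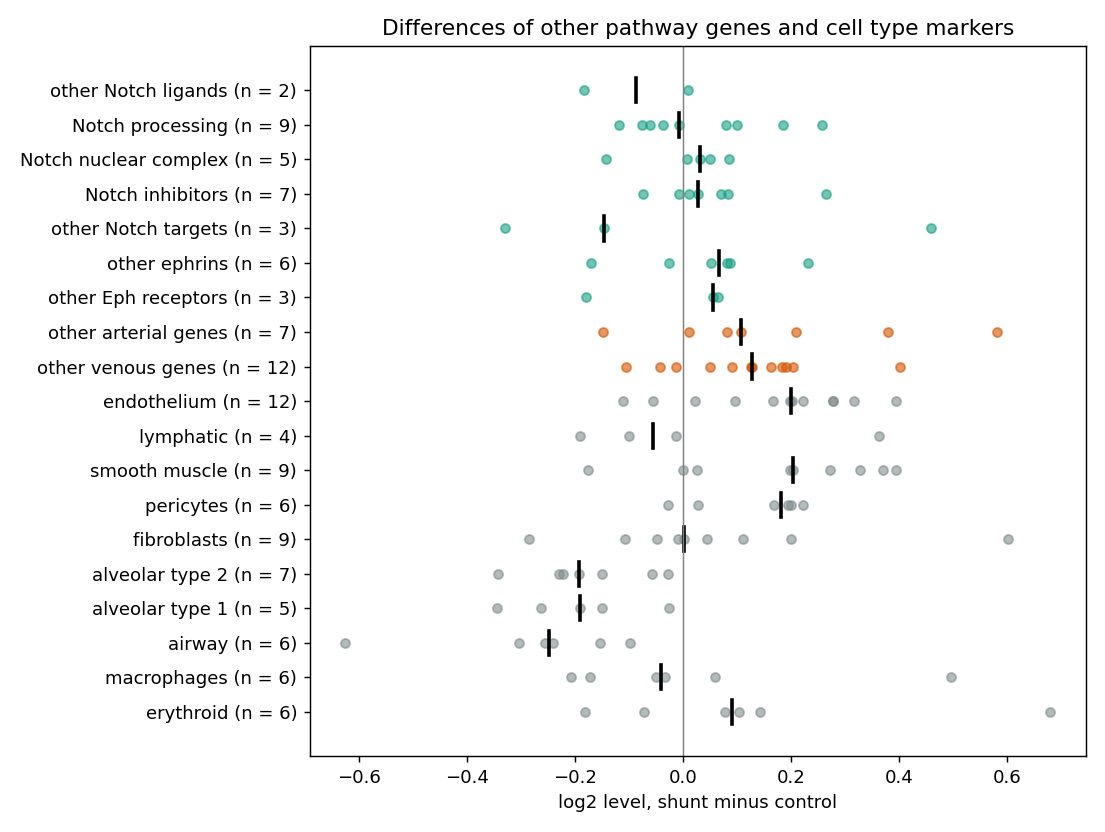
Difference in log2 level, shunt minus control, of each measured gene of the lists (points), with the median of each list (black bars), for other Notch, ephrin and Eph genes (green), other arterial and venous genes (orange) and cell type markers (grey). Medians of the endothelial, smooth muscle and pericyte markers lie at 0.18 to 0.20, and those of the alveolar and airway markers at -0.25 to -0.19.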

How the data were processed

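Lung RNA of 8 shunt and 8 control lambs, grouped by the labels, was measured on 16 arrays. The authors deposited log2 levels, which the submitters' processing notes credit to RMA with no version. Scanner files, detection calls and scan dates were not used here, so levels could not be set against background and batches could not be tested. The number of arrays limits the precision.

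Of 24128 probe sets, 112 manufacturer controls were left out. Symbols came from the platform annotation, and 13292 probe sets had a single symbol. Groups were compared with limma 3.58.1 (lmFit and eBayes, no covariate, two-sided) in R 4.3.3, with Benjamini-Hochberg adjustment over all probe sets or, for lists, over 9155 genes, each with its brightest probe set. The script was tested on simulated data. Python 3.11.15 and matplotlib 3.10.9 made tables and figures.

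The members and lists were chosen with earlier results of these data known. All member probe sets are named, with up to 3 genes of smallest p from each pathway list. Marker lists that move with the groups gave 2 each, and the 3 genes most alike to each member are also named. ALDH1A1 and 2 genes from each of the other marker lists were added after the values were seen. The plan counted 7 arterial and 2 venous genes, of which 4 and 1 had a single-symbol probe set. Lambs that share a replicate number in the titles were not treated as pairs in the main fit. Their deviations from the group means correlated at -0.26 to 0.22, above 0.1 in 2 of 8 pairs. Such correlations cannot show whether the lambs were paired by design. Alternatives covered a replicate block, 3 scalings, array weights, the variance prior, a filter on dim probe sets, the choice of probe set, an exact permutation test, the threshold and leaving out each array.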

Additional observations from a re-analysis of the deposited data

Results flagged for a closer look

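HEY1 in control replicate 2 was far below the other control lambs, at a log2 level of 6.26 with the next lowest at 7.18. The gap was 0.628 of the range of the 8 control lambs, above the critical value of Dixon's test at 95%. It was the only one of 18 groups tested (9 probe sets in 2 groups) to pass, and about 0.9 of 18 would do so by chance. Control replicate 2 was also least correlated with the rest (mean 0.983) and had the smallest limma array weight (0.23). Without it the SD of HEY1 over control lambs was 0.21, against 0.46 with it.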

How the results depend on the processing

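The count of probe sets of these genes past the threshold was 0 under all 11 alternatives and in all 16 fits that left out 1 lamb. The median difference stayed above 0, at 0.0089 to 0.14 for the arterial and 0.09 to 0.27 for the NR2F2 probe sets over the alternatives, and at 0.00086 to 0.16 and 0.17 to 0.30 leaving out 1 lamb. For the brightest NOTCH4 probe set, adjusted p was 0.234 to 0.329 over the alternatives and 0.176 to 0.360 leaving out 1 lamb, where the difference was 0.33 to 0.45. With the replicate block it was 0.37 with an adjusted p of 0.329, and the block changed no call of a member.

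The difference of DLL4 was -0.0287 with array weights and -0.0094 to 0.14 leaving out 1 lamb. That of JAG1, brightest probe set, was -0.0277 after quantile normalization again, -0.0215 after cyclic loess, -0.0409 with array weights and -0.0260 to 0.0302 leaving out 1 lamb. JAG1's dimmer probe set was at 0.0145 with array medians centred, 0.0051 after cyclic loess and -0.0646 to 0.0473 leaving out 1 lamb. The cause of these turns was not tested.

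Over the whole table, 16 probe sets were higher and 1 lower, but 0 passed with the replicate block or by exact permutation. The 0 by exact permutation says little, since its p has a floor set by the 12870 divisions and adjustment covers 24016 probe sets. Counts were 9 higher and 1 lower after quantile normalization again and 25 and 1 with array medians centred. They were 36 and 9 with array weights, and 53 and 22 without shunt replicate 1. The other fits without 1 lamb gave 6 to 29 higher and 0 to 4 lower. Scalings moved the median of all probe sets by less than 0.1.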

Other observations

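Markers of other lung cells were also listed, and the 2 genes of smallest p are given for each list. The 9 fibroblast markers had a median difference of 0.00 (0.08 without control replicate 2), with LUM, a matrix proteoglycan, at 0.60 ± 0.24 (SE; limma adjusted p of 0.275) and COL1A1, a collagen chain, at 0.20 ± 0.13 (adjusted p of 0.493). Lymphatic markers, 4 measured of 6, had a median of -0.06 and 1 was higher, against 44.9% of all genes. PDPN, which alveolar type 1 cells also make, differed by -0.19 ± 0.08 (adjusted p of 0.316) and CCL21, a chemokine of lymphatic vessels, by 0.36 ± 0.18 (adjusted p of 0.359).

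Of 6 macrophage markers measured of 9, 2 were higher, against 44.9% of all genes, with a median of -0.04 (-0.12 without control replicate 2). The scavenger receptor MSR1 differed by 0.50 ± 0.15 (adjusted p of 0.200), but its other probe sets differed by -0.14 to 0.11, and C1QB, a complement chain, differed by -0.21 ± 0.13 (adjusted p of 0.471). Of 6 erythroid markers measured of 8, 4 were higher, against 44.9% of all genes, with a median of 0.09 (0.15 without control replicate 2). HBB, the beta globin gene, differed by 0.68 ± 0.35 (adjusted p of 0.385), but its other probe sets differed by -0.31 to 0.10, and AHSP, the chaperone of alpha globin, differed by -0.18 ± 0.15 (adjusted p of 0.588).

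Among the airway markers, TFF3, a secreted peptide of mucous cells, differed by -0.63 ± 0.23 (adjusted p of 0.248) and BPIFA1, a secreted airway protein, by -0.26 ± 0.11 (adjusted p of 0.309). Among the alveolar type 1 markers, AQP5, a water channel, differed by -0.26 ± 0.06 (adjusted p of 0.104) and CLIC5 by -0.34 ± 0.13 (adjusted p of 0.264). Of the alveolar type 2 markers, SFTPB differed by -0.23 ± 0.09 (adjusted p of 0.253), with -0.05 for its other probe set. SLC34A2 differed by -0.34 ± 0.14 (adjusted p of 0.277).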
